A study of Danio rerio with 15 samples.

Results

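The Notch and neural progenitor module is a list of 34 genes that label dividing precursors of the nervous system, the Notch signal between them, the first steps of neuron formation, and glia. Members were taken by exact gene symbol from the table of read counts of whole zebrafish embryos, which held 47048 gene entries. Of the 34 symbols, 33 had an entry, and 31 carried enough counts to be tested among 23874 tested entries. The her4.1 gene was not analysed here, since no entry carries that symbol. The repressor genes her6 (6 counts over all libraries, at most 2 in 1 library) and her9 (105 counts, 88 of them in PFBS 2) did not reach the filter on low counts. A further 5 entries bear a member's symbol with a numbered suffix (dlc_1, her6_1, her9_1, neurod4_1 and sox19a_1) and are given apart. Reads can be split between an entry and its suffixed copy, so both values are uncertain for these genes.

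Embryos of the Tropical 5D wild-type line had their chorions removed, received 1 of 4 fluorinated compounds with short chains at 47 uM at 8 hours after fertilization, and were collected at 48 hours, 10 whole embryos to a pool and 3 pools to a group. FBSA is perfluorobutane sulfonamide and PFBS the sulfonic acid on the same perfluorobutyl chain. PFPeA is perfluoropentanoic acid, a carboxylic acid, and 42FTS a fluorotelomer sulfonic acid with an ethyl spacer before the acid group. The 3 control pools received 0 uM, are labelled as untreated, and shared with all other groups a methanol content of 0.5% per the treatment protocol. The labels do not say whether pools of a group derive from separate spawnings. The p-values below therefore describe how much these pools vary, which may be technical. The header of the count table gives 1 name to a pair of PFBS columns, called PFBS a and PFBS b here, beside PFBS 2.

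In lateral inhibition, a cell that starts to become a neuron puts Delta ligands on its surface, and these activate Notch receptors on its neighbours. Activated Notch switches on her genes of the Hes family, whose products repress proneural genes and so keep the neighbour a progenitor. Proneural factors in turn raise Delta in the cell that escapes, and progenitors that stay, called radial glia in the zebrafish brain, express SoxB1 factors and glial genes such as gfap.

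Genes took 24249287 to 32686343 counts per library, and 6.32% to 9.94% of reads did not align. Control 3 and 42FTS 2 aligned least often, and the other 13 libraries lay between 6.32% and 6.73%. The log2 levels of any pair of libraries correlated across genes at 0.960 to 0.978. Levels are given below as CPM, which are counts scaled to library size with edgeR's trimmed mean of M-values. Differences are log2 fold changes, each with its SE, the standard error, or with a 95% CI, the confidence interval. A difference passed the test when its Benjamini-Hochberg adjusted p from edgeR's quasi-likelihood F-test, taken over all entries tested, was under 0.05.

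In FBSA the Delta ligands and the proneural genes were higher than in the control, all 9 of them past the test, and glial genes were split. Of the 31 members tested, 15 rose and 1 fell, which is 51.6% of the members. Among all entries tested, 9.53% passed (2274 entries), 5.28% higher and 4.25% lower. The median log2 change was 0.42 over the members and 0.01 over all entries, and 27 of 31 members had a positive change, beside 50.7% of all entries. For 20 members all 3 FBSA pools lay above all 3 controls and for 1 member below, where groups did not overlap for 28% of all entries. At an unadjusted p under 0.05, 21 members differed, beside 5656 entries in all (23.7%). The members were chosen with earlier results of these data known, so these shares are a description and not a test of the list. Because each pool is a whole embryo extract, more cells of a type and more RNA per cell cannot be told apart.

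**Figure D1:**
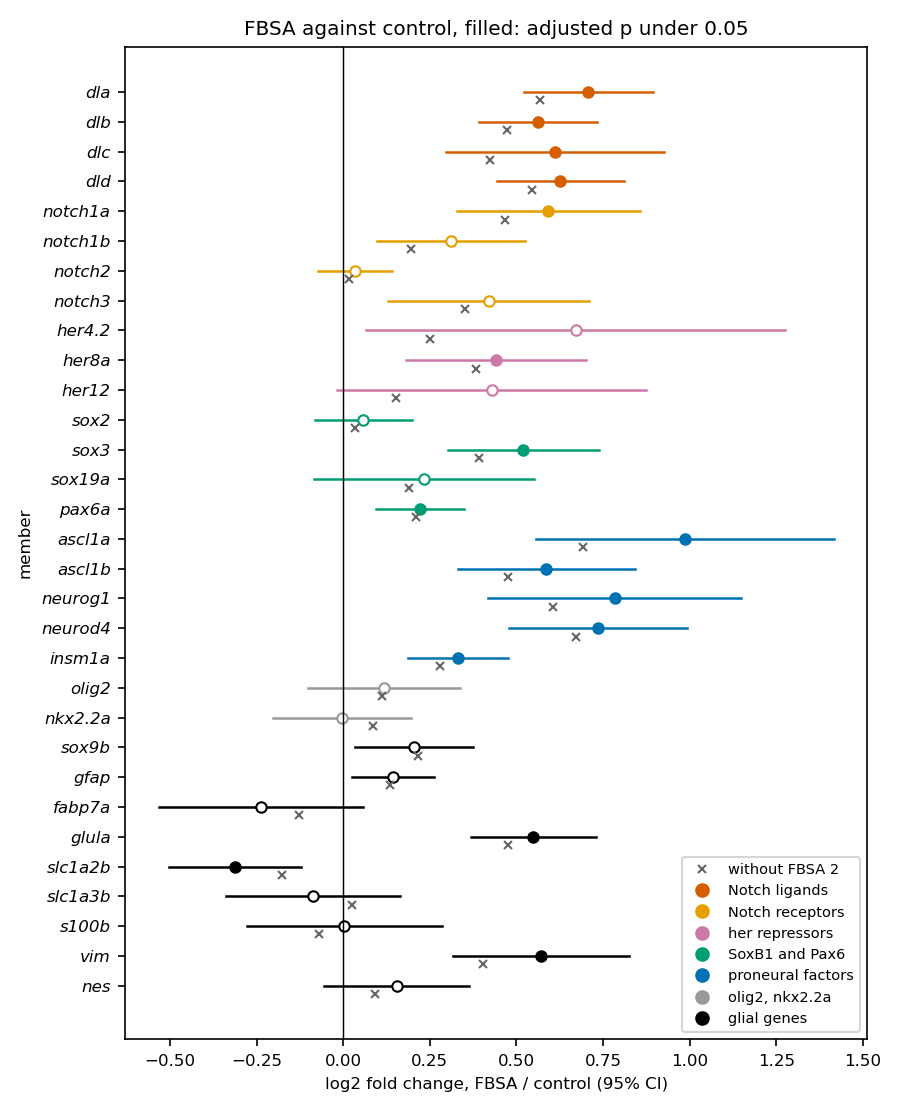
Log2 fold change of FBSA over control for the 31 tested members, grouped by class (colour), with 95% confidence intervals; filled points passed at an adjusted p under 0.05, and crosses give the value without FBSA 2. All 4 ligands and all 5 proneural factors lie to the right of 0, from 0.33 for insm1a to 0.99 for ascl1a, and slc1a2b is the filled point to the left at -0.31.

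All 4 Delta ligands rose in FBSA, with a median log2 change of 0.62. The gene dla, a Delta ligand of the neural plate and brain, stood at 194, 257 and 197 CPM in FBSA 1, 2 and 3 and at 129, 133 and 135 CPM in Control 1, 2 and 3. Acid pools held dla at 132, 135 and 135 CPM in PFBS a, 2 and b, at 152, 140.4 and 136 in PFPeA 1, 2 and 3 and at 149, 145 and 131 in 42FTS 1, 2 and 3. Every FBSA pool was above all 12 others, and FBSA 2 was the highest. The log2 change was 0.71 (SE 0.09, edgeR adjusted p = 0.000222).

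Its relative dld, which also takes part in segmentation of the trunk, stood at 168, 193 and 159.5 CPM in FBSA 1, 2 and 3 and at 103, 111 and 123 CPM in the controls in the same order. Acid pools held dld at 105, 102 and 103 CPM in PFBS a, 2 and b, at 131, 119 and 105 in PFPeA and at 113, 115 and 103 in 42FTS. Again no other pool reached the lowest FBSA pool, and the change was 0.63 (SE 0.09, edgeR adjusted p = 0.00048). The ligand dlb, expressed in cells that are leaving the progenitor state, was at 223, 271 and 229 CPM in FBSA and 167, 159 and 163 CPM in the controls. Acid pools held dlb at 166, 155 and 156 CPM in PFBS a, 2 and b, at 190.4, 159.6 and 161 in PFPeA and at 176, 172 and 156 in 42FTS. Here too the FBSA pools were the 3 highest of the 15, with a change of 0.56 (SE 0.08, edgeR adjusted p = 0.000641).

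The least abundant ligand by count, dlc, which is shared between the nervous system and the somites, stood at 19.0, 28.0 and 20.4 CPM in FBSA and 12.3, 15.17 and 16.7 CPM in the controls. Acid pools held dlc at 10.6, 10.2 and 11.7 CPM in PFBS a, 2 and b, at 16.8, 16.2 and 14.0 in PFPeA and at 14.5, 14.2 and 11.9 in 42FTS. All 3 FBSA pools were above the other 12, FBSA 2 well above the rest, and the 3 PFBS pools were the lowest in this entry. The change was 0.61 (SE 0.15, edgeR adjusted p = 0.0172). It no longer passed without FBSA 2 (0.42, adjusted p = 0.0981), without Control 1 (0.50, adjusted p = 0.0786) or in a fit of the FBSA and control pools alone (0.61, adjusted p = 0.0881). The suffixed entry dlc_1 was at 24.7, 40.6 and 27.2 CPM in FBSA and 21.2, 20.1 and 20.2 CPM in the controls, a difference of 0.59 that did not pass (edgeR adjusted p = 0.0535). With both entries summed the change was 0.60 (SE 0.15, edgeR adjusted p = 0.0195).

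Of the 4 Notch receptors, which the ligands activate, 1 rose. The receptor gene notch1a stood at 316, 378 and 278 CPM in FBSA 1, 2 and 3 and at 229, 228 and 188 CPM in the controls. Acid pools held notch1a at 232, 199 and 227 CPM in PFBS a, 2 and b, at 254, 234 and 213 in PFPeA and at 279, 249.8 and 219 in 42FTS. The FBSA and control pools did not overlap, but 42FTS 1 reached past FBSA 3. The change was 0.59 (SE 0.12, edgeR adjusted p = 0.00964), and it did not pass without Control 3 and 42FTS 2 together (0.51, adjusted p = 0.0572) or in the fit of the 2 groups alone (0.59, adjusted p = 0.0544).

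Its duplicate notch1b was at 130.3, 158 and 122 CPM in FBSA and 109.9, 109.6 and 111 CPM in the controls, where the 3 controls were within 2 CPM of each other. Acid pools held notch1b at 105, 104 and 106 CPM in PFBS a, 2 and b, at 129, 119 and 102 in PFPeA and at 113, 117 and 94.3 in 42FTS, so that PFPeA 1 overlapped with FBSA. The difference from the control of 0.31 (CI 0.10 to 0.52) did not pass (edgeR adjusted p = 0.0655), but did without FBSA 3 (0.39, adjusted p = 0.032), without PFPeA 3 (0.31, adjusted p = 0.0457) or 42FTS 3 (0.31, adjusted p = 0.0431), and by DESeq2 (0.30, adjusted p = 0.0354). For notch3, a receptor of progenitors and of the cells around vessels, the difference was 0.42 (CI 0.13 to 0.71, edgeR adjusted p = 0.0707), with 183, 207 and 177 CPM in FBSA and 156, 149 and 118 CPM in the controls. The 42FTS 1 pool was at 187 CPM, inside the FBSA range. The notch3 difference passed without 42FTS 1 (0.42, adjusted p = 0.0422) and by DESeq2 (0.41, adjusted p = 0.0169). Levels of notch2 lay between 107 CPM in Control 3 and 114 CPM in FBSA 2 over these 6 pools, and the CI of its difference ran from -0.07 to 0.14.

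Of the 3 her repressors tested, 1 rose. The Hes-type gene her8a stood at 41.7, 44.8 and 38.1 CPM in FBSA and 34.8, 30.7 and 26.2 CPM in the controls. Acid pools held her8a at 36.7, 31.1 and 28.3 CPM in PFBS a, 2 and b, at 33.2, 27.1 and 33.5 in PFPeA and at 32.2, 27.3 and 27.3 in 42FTS, all below the lowest FBSA pool. The change of 0.44 (SE 0.12, edgeR adjusted p = 0.0339) did not pass without FBSA 1 (0.44, adjusted p = 0.0689), FBSA 2 (0.38, adjusted p = 0.134), Control 2 (0.45, adjusted p = 0.0867) or Control 3 (0.34, adjusted p = 0.135), nor without Control 3 and 42FTS 2 together (0.34, adjusted p = 0.143) or in the fit of the 2 groups alone (0.44, adjusted p = 0.0685).

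The classic Notch target her4.2, a Hes5-type repressor, was at 16.1, 35.7 and 19.3 CPM in FBSA and 17.3, 11.8 and 15.7 CPM in the controls. Acid pools held her4.2 at 13.7, 12.3 and 12.4 CPM in PFBS a, 2 and b, at 16.7, 15.5 and 10.1 in PFPeA and at 11.5, 14.7 and 10.0 in 42FTS. Only FBSA 2 was far above the controls, FBSA 1 was below Control 1, and the difference of 0.67 (CI 0.07 to 1.28) did not pass (edgeR adjusted p = 0.162). Without FBSA 2 it was 0.25. The neighbouring gene her12 was at 41.9, 67.7 and 40.8 CPM in FBSA and 38.1, 35.2 and 38.6 CPM in the controls, FBSA 2 again far above the rest although these groups did not overlap. Its difference was 0.43 (CI -0.02 to 0.87, edgeR adjusted p = 0.231) and, without FBSA 2, 0.15.

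The Hes1-type repressors her6 and her9 had nearly all their counts in the suffixed entries, apart from her9 in PFBS 2. The her6_1 entry was at 8.89, 28.0 and 11.9 CPM in FBSA and 3.98, 2.92 and 20.9 CPM in the controls, and her9_1 at 2.41, 14.3 and 2.00 CPM in FBSA and 2.08, 8.71 and 2.25 CPM in the controls. In each, a single control pool (Control 3 for her6_1, Control 2 for her9_1) stood above 2 of the FBSA pools. The differences of 0.83 (CI -0.71 to 2.37) and 0.52 (CI -1.17 to 2.21) did not pass (edgeR adjusted p = 0.533 and 0.753).

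Of the 4 progenitor transcription factors, 2 rose. The SoxB1 gene sox3, which holds cells in the progenitor state, stood at 228, 272 and 197 CPM in FBSA and 162, 168 and 156 CPM in the controls. Acid pools held sox3 at 161, 151 and 133 CPM in PFBS a, 2 and b, at 181, 171 and 157 in PFPeA and at 158, 161 and 143 in 42FTS. All FBSA pools were above the other 12, and the change was 0.52 (SE 0.10, edgeR adjusted p = 0.00595). Its family member sox2, with a like role, was at 124, 124 and 112 CPM in FBSA and 119.9, 111 and 115 CPM in the controls, so that the groups overlapped. The CI of the sox2 difference ran from -0.08 to 0.20 (edgeR adjusted p = 0.658) and lay below that of sox3 (0.30 to 0.74), though the difference between both genes was not tested.

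The eye and neural tube factor pax6a was at 192, 184 and 165 CPM in FBSA and 163, 154 and 147 CPM in the controls, a small rise of 0.22 (SE 0.06, edgeR adjusted p = 0.0291). Acid pools held pax6a at 158, 166 and 152 CPM in PFBS a, 2 and b, at 164, 171 and 174 in PFPeA and at 156, 162 and 153 in 42FTS. Of these, PFBS 2, PFPeA 2 and PFPeA 3 were above FBSA 3. The call was lost without FBSA 1 (0.17, adjusted p = 0.0956), FBSA 2 (0.21, adjusted p = 0.0909), Control 2 (0.22, adjusted p = 0.0761) or Control 3 (0.19, adjusted p = 0.117), without Control 3 and 42FTS 2 together (0.19, adjusted p = 0.118) and in the fit of the 2 groups alone (0.22, adjusted p = 0.116).

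The third SoxB1 gene, sox19a, was split over 2 entries, and its value depended on how they were counted. The entry sox19a was at 58.7, 75.8 and 79.5 CPM in FBSA and 71.2, 57.1 and 53.6 CPM in the controls, with a difference of 0.23 (CI -0.09 to 0.55, edgeR adjusted p = 0.377). The entry sox19a_1 was at 66.8, 74.8 and 46.7 CPM in FBSA and 29.7, 43.7 and 45.0 CPM in the controls, with a difference of 0.67 (edgeR adjusted p = 0.0924). Between 29.4% and 61.8% of the summed level lay in sox19a_1, depending on the library. Acid pools held sox19a at 40.2, 58.4 and 41.7 CPM in PFBS a, 2 and b, at 58.6, 59.7 and 60.0 in PFPeA and at 50.3, 58.0 and 54.0 in 42FTS. The standard deviation (SD) of log2 levels within groups was 0.200 for sox19a, 0.303 for sox19a_1 and 0.0959 for their sum. Summed, the levels were 100.1 ± 1.25 CPM in the controls and 134 ± 14.3 CPM in FBSA (SD, n = 3 per group), and the change was 0.42 (SE 0.07, edgeR adjusted p = 0.0014).

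**Figure D2:**
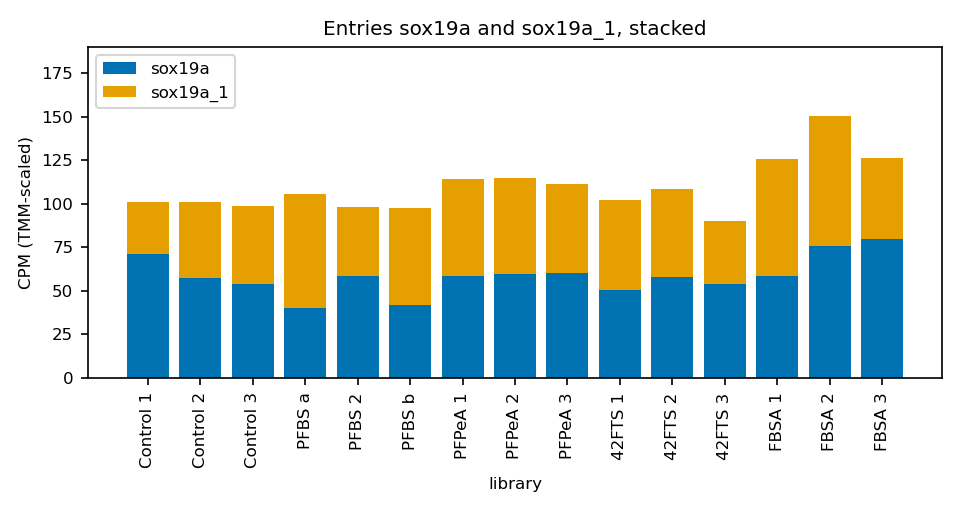
Level of sox19a in each of the 15 libraries as stacked bars in TMM-scaled CPM, the entry sox19a below and its suffixed copy sox19a_1 above. The border between the colours moves from library to library while the total stays near 100 CPM in the controls, and the 3 FBSA totals, 125 to 151 CPM, are the highest.

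All 5 proneural and early neuronal factors rose in FBSA, with a median log2 change of 0.74, the highest of the classes. The Achaete-scute gene ascl1a, which starts neuron formation, stood at 72.7, 114 and 63.3 CPM in FBSA 1, 2 and 3 and at 44.8, 45.0 and 36.5 CPM in the controls. Acid pools held ascl1a at 39.0, 40.7 and 34.1 CPM in PFBS a, 2 and b, at 52.0, 41.9 and 37.7 in PFPeA and at 38.1, 42.1 and 33.4 in 42FTS. FBSA 2 was far above the other FBSA pools, and these in turn were above all 12 others. The change of 0.99 (SE 0.20, edgeR adjusted p = 0.00945) was 0.69 without FBSA 2. It did not pass without Control 3 and 42FTS 2 together (0.90, adjusted p = 0.0531) or in the fit of the 2 groups alone (0.99, adjusted p = 0.0875).

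Its duplicate ascl1b stood at 45.0, 50.5 and 36.4 CPM in FBSA and 31.3, 28.8 and 27.7 CPM in the controls. Acid pools held ascl1b at 28.6, 29.7 and 25.1 CPM in PFBS a, 2 and b, at 34.0, 33.9 and 27.8 in PFPeA and at 29.7, 32.0 and 25.6 in 42FTS. All lay below the lowest FBSA pool, FBSA 3, and the change was 0.59 (SE 0.12, edgeR adjusted p = 0.00684). The proneural gene neurog1, needed for sensory and primary neurons, was at 86.0, 103 and 61.2 CPM in FBSA and 50.4, 50.9 and 43.9 CPM in the controls. Acid pools held neurog1 at 49.3, 40.9 and 36.3 CPM in PFBS a, 2 and b, at 54.5, 48.6 and 43.5 in PFPeA and at 48.9, 46.8 and 39.9 in 42FTS. FBSA 3 was nearest to the other groups, above PFPeA 1. The change of 0.78 (SE 0.17, edgeR adjusted p = 0.0125) was lost as a call without FBSA 2 (0.61, adjusted p = 0.0537), without Control 3 (0.72, adjusted p = 0.0536), without Control 3 and 42FTS 2 together (0.72, adjusted p = 0.0707) and in the fit of the 2 groups alone (0.78, adjusted p = 0.0752).

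Downstream of these factors acts neurod4, which stood at 142, 157 and 134 CPM in FBSA and 90.9, 86.2 and 82.5 CPM in the controls. Acid pools held neurod4 at 75.0, 100.1 and 92.0 CPM in PFBS a, 2 and b, at 108, 74.7 and 94.6 in PFPeA and at 89.4, 92.4 and 89.2 in 42FTS. The FBSA pools were the 3 highest, with a change of 0.74 (SE 0.12, edgeR adjusted p = 0.00224). The copy neurod4_1 held 10.7% to 33.5% of the summed level. Summed, neurod4 was at 111 ± 2.51 CPM in the controls and 184 ± 22.6 CPM in FBSA (SD, n = 3 per group), with a change of 0.74 (SE 0.07, edgeR adjusted p = 8.34e-06). The zinc finger gene insm1a, expressed in newly born neurons and endocrine cells, was at 285, 305 and 263 CPM in FBSA and 224, 227 and 227 CPM in the controls. Acid pools held insm1a at 225, 222 and 207 CPM in PFBS a, 2 and b, at 247, 217 and 205 in PFPeA and at 232, 223 and 214 in 42FTS. Again all FBSA pools were above the other 12, with a change of 0.33 (SE 0.07, edgeR adjusted p = 0.00711).

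Neither of the genes for the ventral domain that makes motor neurons and oligodendrocytes passed. The factor olig2 was at 78.4, 68.1 and 55.5 CPM in FBSA and 62.8, 65.6 and 57.6 CPM in the controls, with a CI of -0.10 to 0.34 (edgeR adjusted p = 0.546). For nkx2.2a, a neighbouring ventral factor, the levels were 32.3, 26.0 and 30.9 CPM and 30.7, 29.4 and 29.3 CPM, with a CI of -0.20 to 0.20 (edgeR adjusted p = 0.99). In both genes the groups overlapped.

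Of the 9 glial genes, 2 rose and 1 fell, and the class median was 0.14. Glutamine synthetase, encoded by glula and used by glia to recycle glutamate, stood at 226, 260.3 and 224 CPM in FBSA and 163, 157 and 166 CPM in the controls. Acid pools held glula at 182, 162 and 145 CPM in PFBS a, 2 and b, at 160.3, 163 and 184 in PFPeA and at 143, 160.2 and 165 in 42FTS, all below the lowest FBSA pool. The change was 0.55 (SE 0.08, edgeR adjusted p = 0.00115). The intermediate filament gene vim, expressed in radial glia and in many other embryonic cells, was at 190.4, 249 and 173 CPM in FBSA and 133, 135 and 144 CPM in the controls. Acid pools held vim at 147, 141 and 134 CPM in PFBS a, 2 and b, at 129, 170.1 and 144 in PFPeA and at 144, 133 and 133 in 42FTS. The 3 FBSA pools were the highest, FBSA 3 just above PFPeA 2. The change was 0.57 (SE 0.12, edgeR adjusted p = 0.00922), and only the fit of the 2 groups alone lost the call among the 23 alternatives run (0.57, adjusted p = 0.0624).

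The glutamate transporter gene slc1a2b was the 1 member that fell. It was at 503, 369.6 and 505 CPM in FBSA 1, 2 and 3 and at 567, 573 and 569 CPM in the controls. Acid pools held slc1a2b at 638, 597 and 585 CPM in PFBS a, 2 and b, at 571, 594 and 573 in PFPeA and at 536, 545 and 592 in 42FTS. All 3 FBSA pools were below the other 12, FBSA 2 by far the lowest. The change of -0.31 (SE 0.09, edgeR adjusted p = 0.0404) lay close to the threshold and was lost in 15 of the 23 alternatives. Among these were the fits without FBSA 2 (-0.18, adjusted p = 0.0649), Control 1 (-0.32, adjusted p = 0.0936), Control 2 (-0.30, adjusted p = 0.106) or Control 3 (-0.31, adjusted p = 0.0949), without Control 3 and 42FTS 2 together (-0.31, adjusted p = 0.118), and of the 2 groups alone (-0.31, adjusted p = 0.183). Without PFBS 2, PFBS b, PFPeA 1, PFPeA 2, PFPeA 3, 42FTS 1 or 42FTS 2 the change stayed at -0.31, with edgeR adjusted p from 0.0508 to 0.054.

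The remaining 6 glial genes did not pass. The glial filament gene gfap was at 217, 227 and 226 CPM in FBSA and 192, 209 and 205 CPM in the controls. Those groups did not overlap, and the difference was 0.14 (CI 0.03 to 0.26, edgeR adjusted p = 0.119). Acid pools held gfap at 218, 202 and 199 CPM in PFBS a, 2 and b, at 204, 219 and 197 in PFPeA and at 184, 190.4 and 200.0 in 42FTS, and PFBS a and PFPeA 2 were above FBSA 1. The gliogenic factor sox9b also had FBSA (123, 118 and 117 CPM) above the controls (105, 110.1 and 96.0 CPM), with a difference of 0.20 (CI 0.03 to 0.38, edgeR adjusted p = 0.13). For fabp7a, the brain fatty acid binding protein, the difference was -0.24 (CI -0.53 to 0.06), with FBSA 2 lowest at 393 CPM. The second glutamate transporter slc1a3b had a CI of -0.34 to 0.16, the calcium-binding protein gene s100b one of -0.28 to 0.28, and the progenitor filament gene nes one of -0.05 to 0.36, and the groups overlapped in all 3.

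**Figure D3:**
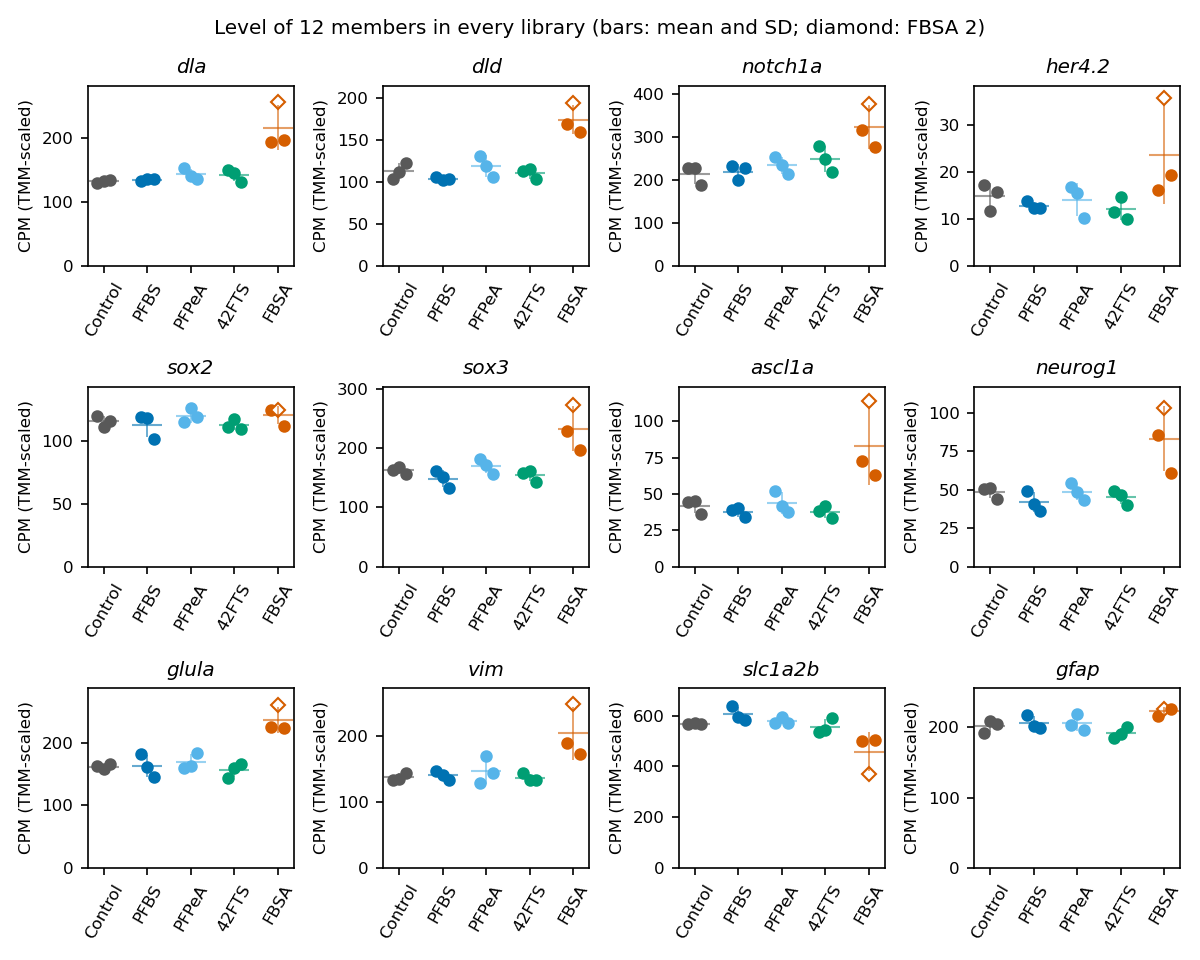
TMM-scaled CPM of 12 members in each of the 15 libraries, by group, with the mean and SD of 3 pools as bars and FBSA 2 as an open diamond. The FBSA points of dla, dld, sox3, ascl1a, neurog1, glula and vim are above all others, those of slc1a2b below, those of sox2 overlap, and in her4.2 FBSA 2 alone stands at 35.7 CPM.

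FBSA 2 differed from the control more than the other FBSA pools in most members. It was the highest FBSA pool in 22 of the 31 members and in 14 of the 15 that rose, pax6a being the exception. The like share over all entries was not counted, so this is not shown to be particular to the members. Over all entries, 2274 were called for FBSA against the control. That number was 1020 without FBSA 2, 2108 without FBSA 1 and 2014 without FBSA 3. The median log2 level of the ligands above the control mean was 0.50 in FBSA 1, 0.86 in FBSA 2 and 0.50 in FBSA 3. For the proneural genes these values were 0.71, 0.86 and 0.34, and for the receptors 0.31, 0.54 and 0.24. The her genes showed the widest gap, with 0.17, 0.86 and 0.33. Glial genes had 0.08, 0.17 and 0.11. The highest value outside FBSA for the 11 Notch ligands, receptors and her genes together was 0.22 in PFPeA 1, where the FBSA pools had 0.38, 0.78 and 0.38.

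Without FBSA 2, 11 of the 31 members still passed, all higher, beside 4.19% of 24355 entries. These were dla (0.57), dlb (0.47), dld (0.55), notch1a (0.47), sox3 (0.39), ascl1a (0.69), ascl1b (0.48), neurod4 (0.67), insm1a (0.28), glula (0.48) and vim (0.40), as log2 changes. The median over all 31 members was then 0.25, from 0.42 with it. Over all 15 pools, 13 members had the 3 FBSA pools above the 12 others, where 5.89% of all entries did, and 1 had them below, where 5.26% did. The part that the spread within FBSA plays was not tested beyond these fits.

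**Figure D4:**
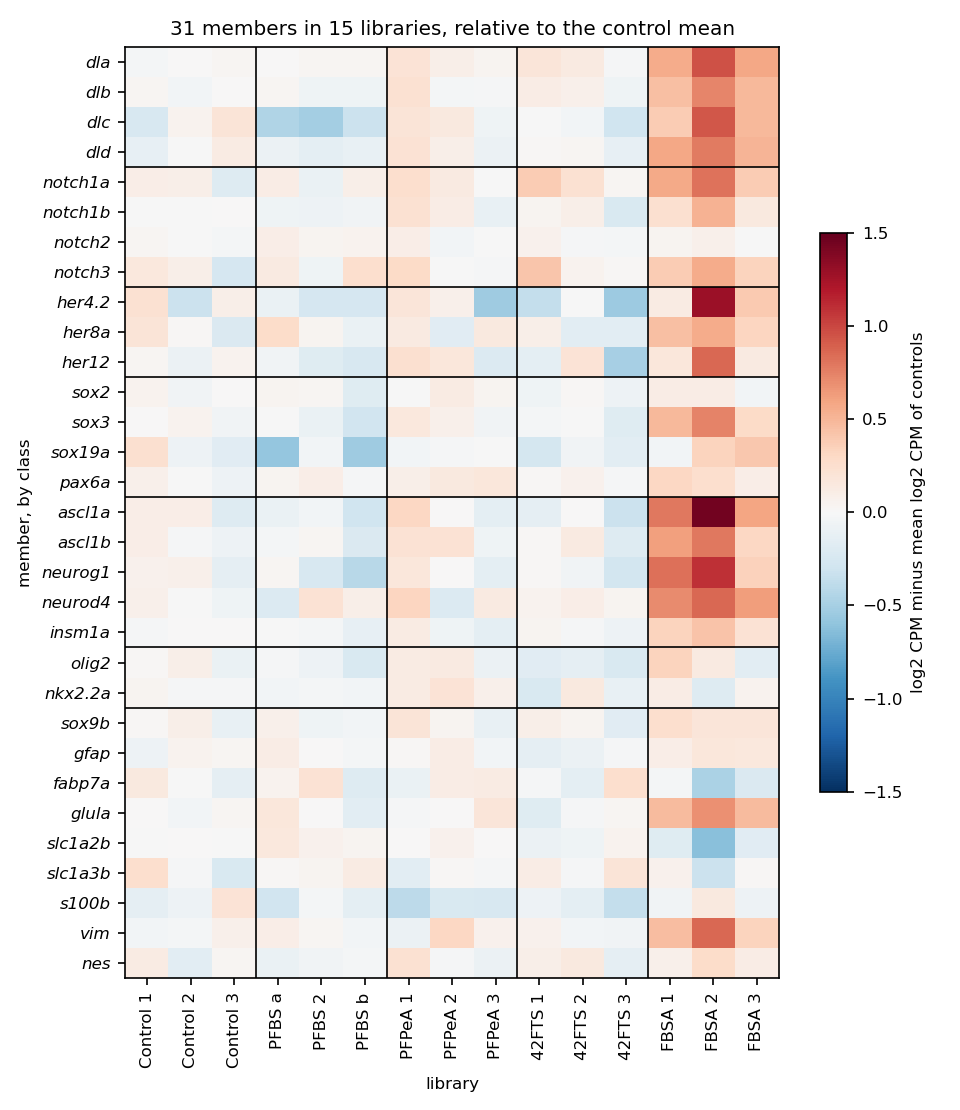
Log2 CPM of the 31 tested members (rows, by class) in the 15 libraries (columns, by group), each relative to the mean of the 3 controls; red is higher and blue lower. The FBSA columns are mostly red from dla to insm1a, least so for notch2 and sox2, and darkest in FBSA 2, while the other 12 columns are mostly pale, with PFBS blue at dlc.

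Most members that rose against the control were also higher in FBSA than in each of the 3 acids, at the same concentration and exposure time. Against PFBS, which differs from FBSA in the head group alone, 15 members rose and 1 fell, beside 10.1% of all entries called in that pair. Against PFPeA 13 rose and 1 fell, beside 8.26%, and against 42FTS 17 rose and none fell, beside 9.8%. All 10 pairs of groups were compared, each with p-values adjusted over its 23874 entries. The comparisons share the FBSA pools, and those with the control also share the control pools. In all 4 comparisons with FBSA, 12 members passed, namely the 4 ligands, the 5 proneural genes, sox3, glula and vim, where 1129 of all entries (4.73%) did. A further 8 passed in 1 to 3 of them and 11 in none.

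Log2 differences from PFBS were 0.68 for dla (SE 0.09), 0.74 for dld (SE 0.09), 1.14 for ascl1a (SE 0.20) and 0.98 for neurog1 (SE 0.17). In the dlc entry without the suffix, the difference from PFBS was 1.05 (SE 0.15, edgeR adjusted p = 0.000625). It was larger in value than that from the control, and PFBS pools were the lowest for this entry. Summed with dlc_1, PFBS a, 2 and b had 33.5, 30.5 and 30.9 CPM and Control 1, 2 and 3 had 33.5, 35.3 and 36.9. The sums of PFPeA 3 and 42FTS 3 were 30.8 and 30.7 CPM, so PFBS pools were not set apart there. Only against PFBS did the sox19a entry without the suffix pass, at 0.61 (SE 0.15, edgeR adjusted p = 0.0205). The call was lost without FBSA 2 (0.57, adjusted p = 0.0863), FBSA 3 (0.53, adjusted p = 0.0619), PFBS a (0.51, adjusted p = 0.0786) or PFBS b (0.53, adjusted p = 0.0807). This does not set PFBS apart for the gene. Summed with its copy, sox19a was at 97.6 to 105.5 CPM in PFBS and 98.7 to 100.9 in the controls. That sum also passed for FBSA against the control (0.42, edgeR adjusted p = 0.0014). The receptor notch1b rose against PFBS by 0.38 (edgeR adjusted p = 0.0269), a call lost without FBSA 2 (0.27, adjusted p = 0.126), PFBS a (0.38, adjusted p = 0.0786), PFBS 2 (0.38, adjusted p = 0.0776) or PFBS b (0.38, adjusted p = 0.0694). For notch1a the value was 0.56 (edgeR adjusted p = 0.0114), lost without FBSA 2 (0.44, adjusted p = 0.0546) or PFBS 2 (0.50, adjusted p = 0.0522). The other 13 calls against PFBS held without any 1 library, that of slc1a2b (-0.40, SE 0.09) among them.

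Against the carboxylic acid PFPeA the differences were the smallest of the 3, with a median of 0.35 over the members, beside 0.38 against PFBS and 0.38 against 42FTS. They were 0.59 for dla (SE 0.09), 0.55 for dld (SE 0.09), 0.49 for glula (SE 0.08) and 0.64 for neurod4 (SE 0.12). Those of dla, dlb, dld, neurod4, insm1a and glula passed without any 1 library. The other 8 calls were lost without at least 1, among them ascl1a without PFPeA 2 (0.90, adjusted p = 0.0598) or PFPeA 3 (0.83, adjusted p = 0.0653), sox3 without FBSA 2 (0.33, adjusted p = 0.0514) or PFPeA 3 (0.41, adjusted p = 0.0627), and vim without FBSA 2 (0.31, adjusted p = 0.0826), PFPeA 1 (0.38, adjusted p = 0.0849) or PFPeA 3 (0.46, adjusted p = 0.0937). The rest of these were ascl1b (0.46), dlc (0.52), neurog1 (0.77), notch1a (0.47) and slc1a2b (-0.34), whose values without FBSA 2 were 0.36, 0.34, 0.60, 0.35 and -0.19. The call of ascl1b was also lost without FBSA 1 (0.45), PFPeA 2 (0.51) or PFPeA 3 (0.38), and that of notch1a without the same libraries (0.49, 0.48 and 0.41). For neurog1 these were PFPeA 2 (0.77) and PFPeA 3 (0.70), and for slc1a2b PFPeA 1, 2 and 3 (-0.35, -0.31 and -0.34). For dlc they were PFPeA 1, 2 and 3 (0.57, 0.55 and 0.45), and PFBS a, 42FTS 2 and Control 2 (0.53, 0.52 and 0.53). The number higher was 7 without FBSA 2, 8 without PFPeA 2 and 6 without PFPeA 3.

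Against 42FTS, 0.61 was found for dla (SE 0.09), 0.73 for dlc (SE 0.15) and 1.14 for ascl1a (SE 0.20). This was the only pair in which her4.2 (0.98, SE 0.28, edgeR adjusted p = 0.0462) and gfap (0.22, SE 0.06, edgeR adjusted p = 0.0207) passed. The call of her4.2 was lost without FBSA 2 (0.55, adjusted p = 0.177) and without any other single library but FBSA 1, FBSA 3 or PFPeA 3, and that of gfap without FBSA 2 (0.20, adjusted p = 0.0739), FBSA 3 (0.21, adjusted p = 0.056), 42FTS 1 (0.19, adjusted p = 0.0868) or 42FTS 2 (0.21, adjusted p = 0.0676). The call of her8a (0.52) was lost without FBSA 2 (0.46), 42FTS 2 (0.48) or 42FTS 3 (0.48). That of notch1b (0.34) was lost without FBSA 2 (0.22) or any other single library but FBSA 3, PFPeA 1 or PFPeA 3, and that of pax6a (0.20) without FBSA 2 (0.18) or any other but FBSA 3, PFBS b, Control 1 or Control 3. Neither notch1a (CI 0.11 to 0.64) nor slc1a2b (CI -0.47 to -0.09) passed in this pair.

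**Figure D5:**
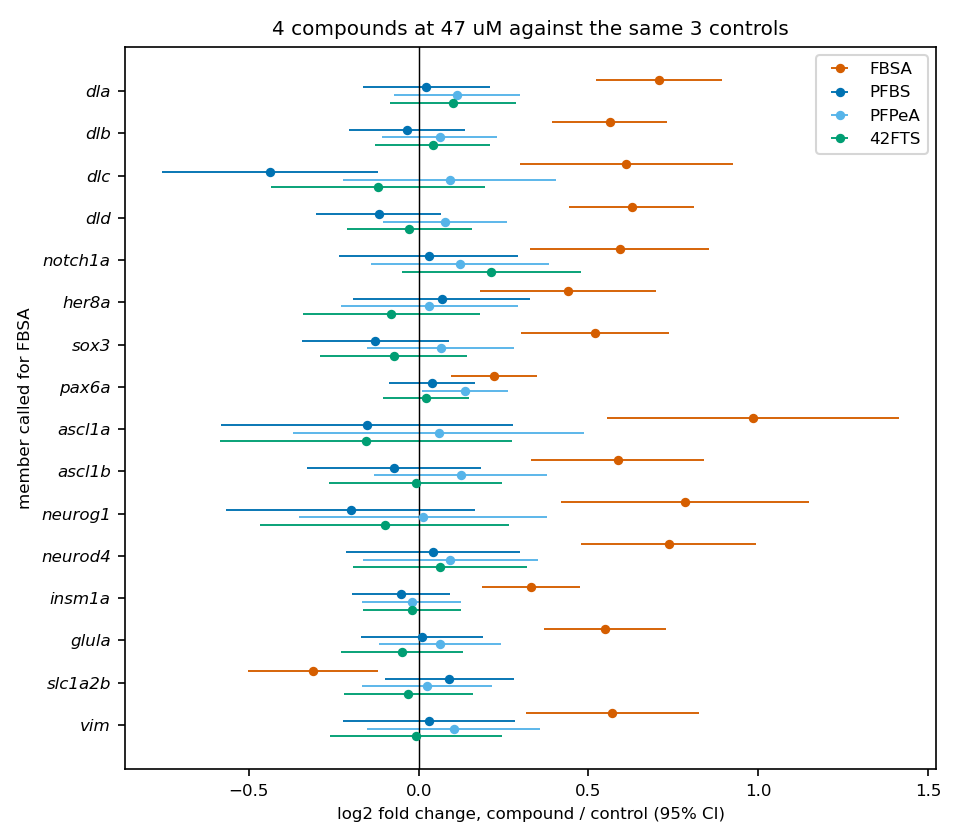
Log2 fold change over the same 3 controls, with 95% confidence intervals, of the 16 members called for FBSA, for each of the 4 compounds at 47 uM. The FBSA points lie apart from 0, while the intervals of PFBS, PFPeA and 42FTS include 0 except for dlc in PFBS (-0.76 to -0.12) and pax6a in PFPeA (0.01 to 0.26).

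None of the 3 acids gave a call for any member against the control, where 0% of all entries were called for PFBS, 0% for PFPeA and 0% for 42FTS by edgeR. At an unadjusted p under 0.05 there were 2 members in PFBS, 2 in PFPeA and 0 in 42FTS, and 925, 1243 and 972 entries in all. DESeq2 called 6, 15 and 12 entries and 0 members. The members' log2 differences ran from -0.44 to 0.10 in PFBS, from -0.29 to 0.14 in PFPeA and from -0.31 to 0.21 in 42FTS, and the median CI reached 0.22 to either side. For dla the CI was -0.16 to 0.21 in PFBS, -0.07 to 0.30 in PFPeA and -0.09 to 0.29 in 42FTS, below the FBSA interval of 0.52 to 0.89. For ascl1a it was wider, at -0.58 to 0.28, -0.37 to 0.49 and -0.59 to 0.28, where FBSA had 0.56 to 1.41.

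The members past an unadjusted p of 0.05 were dlc in PFBS (-0.44, CI -0.76 to -0.12), sox19a in PFBS (-0.38, CI -0.70 to -0.06), pax6a in PFPeA (0.14, CI 0.01 to 0.26) and s100b in PFPeA (-0.29, CI -0.58 to -0.01), all by edgeR. None passed after adjustment over all entries. Both PFBS values are of the entries without the suffix. Summed with its copy, sox19a was at 105.5, 98.3 and 97.6 CPM in PFBS a, 2 and b. In Control 1, 2 and 3 that sum was 100.9, 100.8 and 98.7 CPM. For PFBS over control, the authors' deposited table gives log2 -0.08 for dlc and -0.03 for sox19a. A fall of these genes in PFBS is therefore not shown. Between the acids, 0% of entries were called in PFBS against PFPeA, 0% in PFBS against 42FTS and 0% in PFPeA against 42FTS, and no member passed. At an unadjusted p under 0.05 the pairs held 3, 0 and 1 members and 1154, 1047 and 1629 entries, and DESeq2 called 14, 11 and 24 entries and 0 members. The difference of PFBS from PFPeA in the dlc entry without the suffix was the largest in size, at -0.53 (CI -0.85 to -0.21).

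Of 43 further genes of the Notch pathway tested, 5 rose and 1 fell in FBSA (14.0%, near the 9.53% of all entries), with a median log2 change of 0.10. The glycosyltransferase gene lfng, which tunes Notch for its ligands, rose from 207 ± 11.5 to 289 ± 36.5 CPM (0.48, SE 0.08, edgeR adjusted p = 0.0016). The Hes-type gene her2 rose by 1.19 (SE 0.33, edgeR adjusted p = 0.0384), but FBSA 2 alone stood at 36.2 CPM where FBSA 1 and FBSA 3 had 13.1 and 13.7, and without FBSA 2 the value was 0.55. Without Control 1, Control 2 or Control 3 her2 did not pass either (1.31, 1.17 and 1.11), nor without any other single library but FBSA 1, FBSA 3 or 42FTS 2. The others that rose were the ligand jag1a (0.47), the co-activator maml1 (0.27) and the protease subunit psen2 (0.31). The transcription factor gene rbpja, on which the Notch signal converges, fell by 0.25 on the log2 scale (SE 0.07, edgeR adjusted p = 0.0469), a call lost at -0.23 without FBSA 2 and without any other single library but PFBS 2, 42FTS 3 or Control 2. The count that rose was 2 without FBSA 2, Control 1 or Control 2 and 3 without Control 3.

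Further genes of progenitors, neuron formation and glia gave calls in both directions. Of 21 other progenitor genes 5 rose and 1 fell (28.6%, beside 9.53% of all entries, median 0.10). The repressor gene her3 rose by 1.15 (SE 0.28, edgeR adjusted p = 0.0172), from 1.33 ± 0.363 to 2.95 ± 0.808 CPM, and the SoxB1 gene sox19b by 0.40 (SE 0.10, edgeR adjusted p = 0.0177). Neither passed without FBSA 2 (0.90 and 0.34) or without Control 2 (0.94 and 0.39), and sox19b also not without Control 3 (0.39). The RNA-binding protein gene msi2b fell by 0.31 on the log2 scale (edgeR adjusted p = 0.0118), and did not pass without FBSA 2 (-0.25). The count that rose was 1 without FBSA 2 and 2 without Control 2 or Control 3.

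Of 20 other genes of neuron formation 4 rose and 3 fell (35%, beside 9.53% of all entries, median 0.01). The retinal proneural gene atoh7 rose by 0.62 (edgeR adjusted p = 0.0116) and insm1b, the duplicate of insm1a, by 0.52 (SE 0.08, edgeR adjusted p = 0.00153). The bHLH genes neurod2 and neurod6a fell by 1.25 and 0.75 on the log2 scale (edgeR adjusted p = 0.025 and 0.0131). Without FBSA 2, atoh7 (0.46), neurod2 (-1.09) and neurod6a (-0.59) did not pass. Nor did atoh7 without Control 1 (0.57), or neurod2 without FBSA 1 (-1.27), Control 1 (-1.15) or Control 2 (-1.20). The number higher was 1 without FBSA 2 and 2 without any of the 3 controls, and the number lower 1 without FBSA 2 and 5 without FBSA 3.

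Of 16 other glial genes 4 rose and 1 fell (31.2%, beside 9.53% of all entries, median 0.08). The count that rose was 4 without any 1 library too. The glutamate transporter slc1a3a, duplicate of slc1a3b, rose from 83.3 ± 6.37 to 129.8 ± 16.1 CPM (0.64, SE 0.09, edgeR adjusted p = 0.00048). The growth factor gene mdka, expressed in the neural tube, rose from 564 ± 23.4 to 799.9 ± 52.1 CPM (0.50, SE 0.05, edgeR adjusted p = 7.78e-05). Also higher were mdkb (0.41) and aqp1a.1 (0.38). The retinoid binding protein gene rlbp1a fell by 0.59 on the log2 scale (edgeR adjusted p = 0.0416), a call lost at -0.41 without FBSA 2 and without any other single library but FBSA 1, PFPeA 1 or PFPeA 3. Of 14 oligodendrocyte genes 2 rose (14.3%, near the 9.53% of all entries, median 0.03). These were nkx2.2b by 0.93 (SE 0.17) and the myelin gene plp1a by 0.48 (SE 0.08), with edgeR adjusted p of 0.00413 and 0.00155. Both passed without any 1 library. No gene of these lists passed in PFBS, PFPeA or 42FTS by edgeR or DESeq2, and at an unadjusted p under 0.05 a list held at most 3. Of the progenitor list and of the neuron formation list 1 gene each was at 0 in all libraries.

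In FBSA, most markers of differentiated neurons fell, while most genes of dividing cells rose as most called members did. Their part in the result was not tested. Of 19 neuron markers 13 fell and none rose (68.4%, beside 9.53% of all entries, median -0.34). Among them were elavl4 at -0.63 (SE 0.08) and map1b at -0.59 (SE 0.14). The markers elavl3 (0.12), nefma (0.20) and nefla (0.13) were higher in FBSA without passing (edgeR adjusted p = 0.0911, 0.0839 and 0.708). The summed level of the neuron markers was 4257 to 4357 CPM in the controls, 4199 to 4629 in the acids and 3329 to 3857 in FBSA, lowest in FBSA 2. Of 20 cell cycle genes 12 rose and none fell (60%, beside 9.53% of all entries, median 0.27), with rrm2 at 0.96 and ccne2 at 0.41. Their sum was 3068 to 3128 CPM in the controls, 2993 to 3203 in the acids and 3535 to 4097 in FBSA, highest in FBSA 2. No entry of either list was at 0 in all libraries. The counts were 7 lower neuron markers and 6 higher cell cycle genes without FBSA 2, 8 and 7 without Control 1, and 6 cell cycle genes without Control 2. The call of map1b was lost without FBSA 2 (-0.48), Control 1 (-0.54) or Control 3 (-0.53), and that of rrm2 without FBSA 2 (0.94), Control 1 (0.90) or Control 2 (0.89).

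Of 30 tested places in 5 lists of markers of other cell types in the embryo, 4 passed (13.3%, near the 9.53% of all entries). Of 7 endothelial markers 2 rose, etv2 (0.57) and kdrl (0.26), and the sum was 158 to 172 CPM in the controls and 172 to 190.1 in FBSA. Of 6 tested markers of the tailbud and somites, where dlc and dld are also expressed, none passed by edgeR (median 0.29, 3 at an unadjusted p under 0.05), and the sum was 32.4 to 38.0 CPM in the controls and 38.3 to 53.7 in FBSA, highest in FBSA 2. Of 5 neural crest markers tfap2a fell by 0.31 on the log2 scale, with sums of 414 to 423 CPM in the controls and 343 to 377 in FBSA. None of 5 microglia markers passed by edgeR, also not before adjustment, with sums of 1307 to 1499 and 1439 to 1879 CPM, and of 7 retina markers rlbp1a fell, with sums of 244 to 274 and 242 to 276 CPM. No marker of these lists was at 0 in all libraries, and their part in the result was not tested. The endothelial calls were lost without FBSA 2 (etv2 0.41, kdrl 0.28), Control 1 (etv2 0.52, kdrl 0.20) or Control 2 (etv2 0.61, kdrl 0.26), and that of kdrl also without any other single library but FBSA 1, PFPeA 2 or Control 3.

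In the authors' deposited table of genes changed by FBSA, which lists 1909 genes, 18 members are present, 17 higher and 1 lower. The authors' deposited enrichment table for FBSA counts 1711 of 20724 genes as changed (8.26%). That is another set of genes than the 1909 listed, so 8.26% is only a rough background for the 18 members. Of the 18 members, 15 also passed here, on the same pools. The authors' deposited table further lists notch1b (log2 0.30, Q = 0.0379), notch3 (log2 0.41, Q = 0.000728) and sox19a (log2 0.39, Q = 0.000124), and it does not list pax6a. Its values for dla (log2 0.70, Q = 3.28e-10) and neurod4 (log2 0.77, Q = 5.57e-15) are the lowest Q of a ligand and of a proneural gene, and every Q of a member in PFBS, PFPeA or 42FTS rounds to 1.

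Levels between genes can be compared per length through the TPM, a length-scaled level, that the authors' deposited table gives for those 18 members. In control embryos slc1a2b was the most abundant at 172 ± 1.70 TPM, followed by neurod4 at 152 ± 6.07, sox3 at 121 ± 3.62, insm1a at 119.9 ± 1.71, glula at 109 ± 3.42 and vim at 106 ± 6.22 TPM (SD, n = 3 each). The ranges of sox3 and insm1a overlapped, as did those of glula and vim. Among the ligands dlb stood highest at 71.9 ± 2.01 TPM, dla (44.4 ± 0.818) and dld (43.4 ± 3.84) did not differ beyond their spread, and dlc was lowest at 29.2 ± 1.66. Of the receptors, notch1a stood at 38.8 ± 4.79 TPM, overlapping with dld, and notch3 at 23.7 ± 3.28 and notch1b at 12.3 ± 0.282 TPM were below every ligand. In FBSA neurod4 (249 ± 35.7 TPM) stood above slc1a2b (131 ± 21.5 TPM), the reverse of their order in the controls.

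The authors' deposited enrichment table for FBSA gives the Gene Ontology term Notch signaling pathway with 19 of 94 genes changed, or 20.2%, beside 8.26% of all genes (q = 0.0165). Among the 48 terms on Notch, neuron formation, glia or stem cells searched in that table, the term ventral spinal cord interneuron differentiation (7 of 18 genes, q = 0.0254) and nervous system development (34 of 231, q = 0.0349) also had a q under 0.05. The authors' deposited transcription factor table, made on human identifiers, gives the ratio of observed to expected targets as 1.269 for SOX2 (p = 1.083e-09), 1.178 for RBP-J kappa (p = 1.075e-08), 1.419 for SOX9 (p = 1.895e-07) and 1.643 for OLIG2 (p = 0.006667). These enrichments rest on the same FBSA pools as the counts above.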

How the data were processed

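RNA from pools of whole embryos was captured by oligo(dT) and sequenced on a BGISEQ-500, per the labels' protocols. The deposited table holds raw counts of reads per gene entry for 15 libraries, made by the authors with no normalization stated. The submitters' processing notes name HISAT2, HTSeq, Bowtie2, RSEM, DESeq2 and GRCz11, with no versions or roles, and the sources used here do not give whether counting used strand. The authors' deposited comparison table gives log2 fold changes, p-values with Q values, and TPM, and lists only genes with an FBSA Q under 0.05. The authors' deposited enrichment tables give numbers of genes, p-values with q-values, and the ratio of observed to expected targets. Of the deposited columns, 45 (per-sample values and averages) were not used.

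Counts were filtered with edgeR 4.0.16 (filterByExpr defaults), scaled by TMM and fitted over the 15 libraries together by group alone, which shares 1 estimate of the spread. The 10 pairs of groups were tested with the robust quasi-likelihood F-test in R 4.3.3, and p-values were adjusted by Benjamini-Hochberg over 23874 entries. The SE is the size of the log2 change divided by the square root of F. Entries that name no gene were left out of library sizes, and reads in no gene made up 33.4% to 36.3%. Gene counts were lowest in 42FTS 2 (24249287) and Control 3 (24552649), beside 31853175 to 32686343 in the other 13 libraries. The median confidence interval of the members reached 0.22 to either side, before adjustment over all entries. Larger differences could fail to pass, such as notch3 for FBSA against the control (0.42, edgeR adjusted p = 0.0707). The steps were run on simulated data with the same spread for all genes and no pool set apart. That run does not cover a pool such as FBSA 2.

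The members and lists were chosen with earlier results of these data known. Members called in any pair are given in every library. Of each other list, up to 2 genes with the largest increase and 2 with the largest decrease among those past the test for FBSA against the control are named. Any further calls that are named were chosen after their values were seen. Of 206 listed genes, 196 matched by symbol, 4 by synonym, and 183 were tested. Gene order was read from RefSeq (GRCz12tu), without coordinates. Alternatives were DESeq2 1.42.0, its size factors in edgeR, no filter or at least 1 CPM in 3 libraries, only the groups compared, a replicate block, merged copies, leaving out each library, and leaving out Control 3 and 42FTS 2 together.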

Additional observations from a re-analysis of the deposited data

How the results depend on the processing

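Of the 16 members called for FBSA against the control, 8 were called in all 23 alternatives: dla, dlb, dld, sox3, ascl1b, neurod4, insm1a and glula. The number of members higher (15) was 8 in the fit of only the 2 groups and 11 to 16 when leaving out each library, and the number lower (1) was 0 with no filter on low counts, in the fit of only the 2 groups, with the replicate block and without Control 3 and 42FTS 2 together, and 0 to 1 leaving out each library. The fit of only the 2 groups gave 0 lower against PFBS (1), 4 higher (13) and 0 lower (1) against PFPeA, and 10 higher (17) against 42FTS. Against PFPeA the number lower was also 0 with the block and without Control 3 and 42FTS 2. Leaving out each library gave 12 to 16 higher against PFBS, 6 to 14 higher and 0 to 1 lower against PFPeA, and 12 to 18 higher and 0 to 1 lower against 42FTS, where DESeq2, its size factors and merged copies each gave 1 lower in place of 0. Over all entries, the calls of FBSA against the control, PFBS, PFPeA and 42FTS (2274, 2423, 1971 and 2339) were 855, 934, 438 and 788 in the fits of only the 2 groups and 1020, 1159, 787 and 999 without FBSA 2. Without Control 3 and 42FTS 2 together they were 1228 against the control and 1339 against 42FTS. Against the control they were 1296, 1309 and 1430 without Control 1, 2 and 3, against PFBS 1443 without PFBS a and 1508 without PFBS 2, against PFPeA 934 and 908 without PFPeA 2 and 3, and against 42FTS 1390, 1441 and 1253 without 42FTS 1, 2 and 3. Some alternatives gave more calls. For FBSA against the control, PFBS, PFPeA and 42FTS, DESeq2 called 3096, 3351, 2841 and 3223 entries, and merged copies gave 2650, 2915, 2338 and 2758. Members called in that order were 18, 20, 16 and 21 by DESeq2 and 18, 17, 16 and 19 with merged copies, beside 16, 16, 14 and 17.

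In the other lists, the fit of only the 2 groups gave 3 higher and 0 lower Notch pathway genes (5 and 1), 2 and 0 progenitor genes (5 and 1), 1 and 0 neuron formation genes (4 and 3), 0 lower glial genes (1), 5 lower neuron markers (13), 6 higher cell cycle genes (12), and 0 higher and 1 lower among the 5 other marker lists (2 and 2). Without Control 3 and 42FTS 2 these were 2 and 0 Notch pathway, 2 higher progenitor and 2 higher neuron formation genes, 0 lower glial genes, 7 lower neuron markers and 1 lower other marker. DESeq2 gave 5 lower neuron formation genes, 1 higher neuron marker and 4 higher other markers. No filter gave 0 lower Notch pathway genes and 1 higher other marker, DESeq2's size factors 1 higher other marker, and the block 0 lower glial genes and 1 lower other marker. Leaving out each library, the ranges were 2 to 5 higher and 0 to 1 lower Notch pathway genes, 1 to 5 and 0 to 1 progenitor genes, 1 to 5 and 1 to 5 neuron formation genes, 0 to 2 lower glial genes, 7 to 13 lower neuron markers, 6 to 12 higher cell cycle genes, and 0 to 4 higher and 1 to 2 lower other markers. The median of the progenitor factors (0.23) was 0.17 without Control 3 and 42FTS 2 and 0.32 with merged copies, and 0.17 to 0.31 leaving out each library. Those ranges were 0.0803 to 0.16 for glia, 0.25 to 0.47 for all members and -0.04 to 0.11 for the oligodendrocyte factors.

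Single genes against the acids and in the other lists were followed only where they had passed, so these could lose a call but not gain one. The balance of lost and gained calls below is set in part by that choice. Of 2284 values of single genes under the alternatives, 2011 kept direction and side of the threshold, 252 lost the call, 10 gained one and 11 changed sign, all of the 11 in genes near 0. These were olig2 without FBSA 1 (-0.0058, with a range of -0.0058 to 0.24 leaving out each library), nkx2.2a with at least 1 CPM in 3 libraries (0.0044), without FBSA 2 (0.0852) and without Control 1 (0.02; range -0.0664 to 0.0852), and slc1a3b without FBSA 2 (0.03) and Control 1 (0.0465; range -0.20 to 0.0465). For s100b they were -0.0044 with DESeq2's size factors, -7e-04 by DESeq2, and -0.0692, -0.0663 and -0.0318 without FBSA 2, Control 1 and Control 2 (range -0.0692 to 0.12). The cause of these changes was not tested, except that leaving out a library or the other groups leaves fewer samples to estimate the spread.

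Same-numbered libraries were not seen to vary together (18 pairs, correlation of deviations -0.0639 to 0.0857, none over 0.1). With 3 libraries per group, a small shared effect could be missed, so whether the numbers pair the samples is not known. With the replicate number as a block and PFBS left out, since its columns carry no full set of numbers, 17 members were called for FBSA against the control and 2035 of all entries, beside 16 and 2274. With the block notch1b (0.30, adjusted p = 0.0452) and notch3 (0.43, adjusted p = 0.0198) passed, and slc1a2b (-0.32, adjusted p = 0.0671), her2 (1.07, adjusted p = 0.0505) and rlbp1a (-0.60, adjusted p = 0.07) did not. Against PFPeA the block lost the calls of dlc (adjusted p = 0.0613) and slc1a2b (0.0566), and against 42FTS those of her4.2 (0.0896) and pax6a (0.0566). Other members gained a call, since 14 were called with the block against PFPeA and 18 against 42FTS, beside 14 and 17 without it. Among the 100 results of single genes compared, those against PFBS could not be fitted with the block. In the rest it changed no other call, but members that had not passed against an acid without the block were not among the 100.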

Other observations

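Some Hes-type genes, chosen after their values were seen, had their highest FBSA level in FBSA 2, among them genes that neighbour each other. The her2 gene was at 13.1, 36.2 and 13.7 CPM in FBSA 1, 2 and 3, where the other 12 libraries had 7.77 to 12.3 CPM, and her15.1, its neighbour in RefSeq's gene order, was at 25.1, 47.3 and 25.2 CPM. In the run of genes from her12 through her4.2 to her4.5, her4.3 was at 7.40, 17.6 and 9.14 CPM and her4.4 at 19.2, 30.1 and 15.21 CPM in the same libraries. Other neighbours did not share this order: her13 was at 31.9, 31.1 and 32.4 CPM and her5 at 0.190, 0.0626 and 0.374 CPM, lowest in FBSA 2. Hes-type genes with no her gene beside them also peaked there, such as her3 (2.54, 3.88 and 2.43 CPM) and her8a (41.7, 44.8 and 38.1 CPM). FBSA 2 was the highest FBSA pool in 22 of the 31 members too, so the peak is not shown to be particular to neighbours. The her4 genes resemble each other in sequence, so reads may be shared among them, and the levels of single her4 entries are uncertain.

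The suffixed entries her6_1 and her9_1 held even numbers of counts in 14 and 12 of the 15 libraries. Among 9729 entries of like depth, 11 (0.113%) had at least 14 even counts of 15 and 229 (2.35%) at least 12, and the median entry had 53.3% even counts. The cause was not tested.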
